A study of Mus musculus with 12 samples.

Results

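The comparison set reads of a TruSeq library made from 1000 ng of total RNA against reads of a TruSeq library made from 100 ng, bin by bin along 58 mouse gene models. It used 2 of the 12 samples of the series, each with 5 replicates, and all 925 exon bins that remained after repeated rows and 1 bin without finite values were dropped. All RNA came from the mouse cell line D1, mixed with ERCC control RNA and selected for poly(A). Both samples were assembled by computer. Each background received reads of its own list of transcripts, taken from 80M reads (M stands for 1e6) of a further TruSeq library prepared from 100 ng, and synthetic reads with even coverage of other transcripts. The labels name 9 kit-read transcripts for the 1000 ng background and 18 for the 100 ng background, and these fall in 21 of the 58 gene models: 12 listed for 100 ng only, 5 for 1000 ng only and 4 for both. Another 33 models carry synthetic reads only, and 4 models have no listed transcript. The labels do not say whether the replicates were separate cultures or libraries, so p-values refer to these columns only. Markers of the cell line were not checked, because the table covers these 58 models alone.

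Most mammalian genes give several transcripts from the same exons, through skipped exons, shifted splice sites, retained introns, and alternative first or last exons. An exon bin is a stretch of a gene model that no transcript boundary cuts, so a bin either belongs to an isoform entirely or not at all. When one isoform becomes more abundant, its own bins rise against the other bins of the model, and the total of the gene can hide this. Retained introns and alternative last exons often change the end of the protein or the part of the transcript that follows it.

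For every bin 3 quantities were set side by side. The level is reads per base of the bin after column scaling, given here in FPKM equivalents (reads per kilobase of bin and per 1e6 reads). The usage difference is the log2 level difference of a bin minus the mean log2 difference of the other bins of its model, positive where the bin was relatively higher in the 1000 ng background. The share is the percentage of the model that 1 bin holds, either of its summed levels or, where stated, of its reads. Levels were not compared between bins of different length, since bins of a few bases have very high values per base.

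Of 924 bins tested, 177 (19.2%) had a usage difference by limma diffSplice: 105 were relatively higher with 1000 ng and 72 with 100 ng. In gene models, 27 of 58 (46.6%) passed the F test. By level, 197 bins (21.3%) passed, 73 higher with 1000 ng and 124 with 100 ng, and 24 model totals (41.4%) passed. The share of summed levels, which does not depend on any column scale, differed for 167 bins (18.1%) by an exact permutation test, 83 of them higher in the 1000 ng background, and 122 bins passed both this test and the usage test. The usage test pools the spread over the bins of a model as if these were independent. Its p-values can therefore fall far below 0.00794, the smallest p of the permutation test, and do not measure the spread between columns alone. Scaling columns by total reads in bins lowered the usage calls to 78, of which 35 were higher in the 1000 ng background and 76 were also called with the size factors, and turned the split of level calls to 69 of 138. Among the bins named below, 10 lost the usage call under that scaling with little change in the difference itself: Nono E012, Aes E005, Myadm E004, Birc3 E008, Il18rap E011, Kcnn4 E001, Saal1 E004, Rhbdd3 E002 and E008, and Dhps E006. That scaling put the median level difference of all bins at 0.15 on the log2 scale, against 0.04.

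Bin usage did not always go with bin level or model total. Of the 177 bins with a usage difference, 83 had no level difference past the threshold, though these tests estimate the spread differently. Usage of bins and the total both passed in 21 models, and the total alone in 3. In 6 models the usage of bins differed and the total did not: Elp2, Atg16l1, Rnf130, Rcbtb2, tubg1 and AK005305. In 5 bins the level passed in one direction and the usage in the other (Mgl2 E003, E004 and E009, Pla2g15 E002, Myadm E004).

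Models with kit reads held 146 of the usage calls among 322 bins (45.3%), models with synthetic reads 30 among 537 (5.59%), and the 4 unlisted models 1 among 65 (1.54%). Within the 12 models listed for 100 ng only, 59 bins were relatively higher with 1000 ng and 44 with 100 ng, although 91 of the 92 bins that passed by level were higher in the 100 ng background. The 5 models listed for 1000 ng only had 16 and 10. Usage calls went in both directions in 19 of the 21 kit-read models, the exceptions being Saal1, with 3 bins all relatively higher in the 1000 ng background, and Gmfg, with none.

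**Figure D1:**
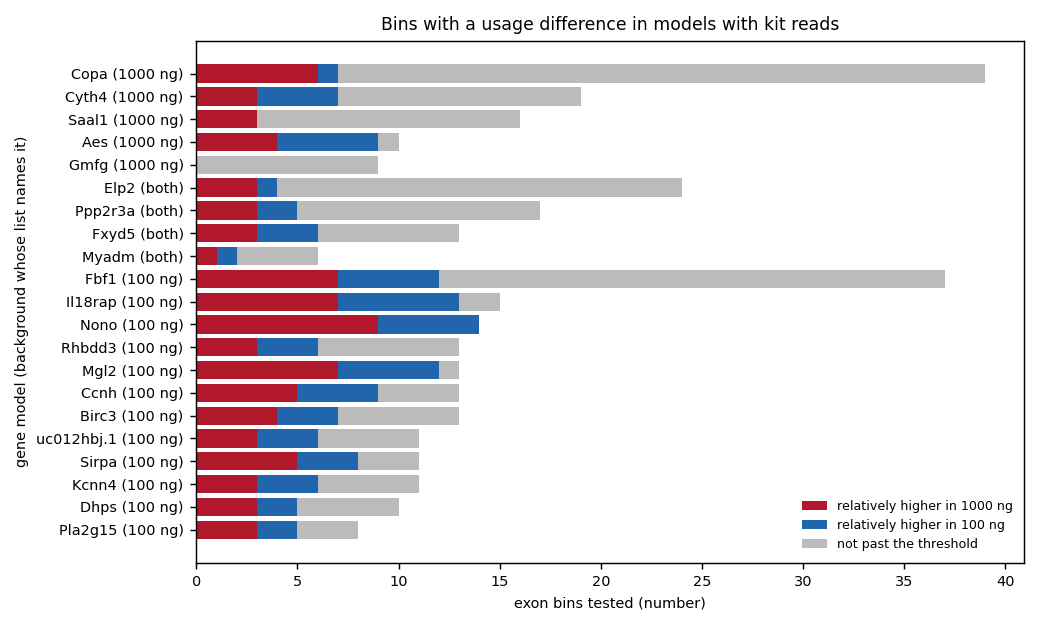
Number of exon bins tested per gene model with kit reads (horizontal axis), split by the result of the usage test; brackets give the background whose list names the model. All 14 bins of Nono and 12 of 13 bins of Mgl2 passed, and no bin of Gmfg did.

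Every replicate gained the same number of kit reads per bin. Between the tables with 40M and 80M source reads, the gain of reads was equal in all 5 replicates for each of the 925 bins, in both backgrounds. It amounted to 20343 reads over 97 bins with 1000 ng and 40021 reads over 177 bins with 100 ng. The SD between replicates therefore holds no variation in the number of reads gained, although their scaled level does vary. After scaling they weigh less in the columns with larger size factors, and replicates 3 and 4 of the 100 ng background (size factors 1.43 and 1.24, against 0.68 to 0.74 in the others) had the lowest 100 ng levels in bins such as Mgl2 E012, Sirpa E011 and Nono E006.

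Sequences of 7 bins are shown first, 6 with a usage difference and Fxyd5 E008 as a matching 3-base bin without one, from the NCBIM37 (mm9) genome in the direction of transcription, with the bin in capitals and 20 neighbouring bases on either side in lower case. The first pair are 3-base bins at the start of a coding exon, where transcripts differ by a single codon.
Mgl2 E003, chr11:69948551-69948553, plus strand: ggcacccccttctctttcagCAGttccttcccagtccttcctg
Fxyd5 E008, chr7:31822948-31822950, minus strand: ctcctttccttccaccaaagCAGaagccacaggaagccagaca
In both, the bases before the bin end in ag, the usual end of an intron, and the bin itself ends in AG, so that either can serve as the end of the intron. The other 5 are whole coding bins.
Fxyd5 E004, chr7:31820228-31820302, minus strand: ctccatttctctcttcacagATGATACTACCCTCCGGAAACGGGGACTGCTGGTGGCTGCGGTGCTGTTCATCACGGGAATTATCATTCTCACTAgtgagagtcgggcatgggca
Atg16l1 E012, chr1:89671656-89671703, plus strand: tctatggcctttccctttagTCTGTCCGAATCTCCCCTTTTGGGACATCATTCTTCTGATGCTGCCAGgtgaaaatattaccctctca
Copa E007, chr1:174022376-174022485, plus strand: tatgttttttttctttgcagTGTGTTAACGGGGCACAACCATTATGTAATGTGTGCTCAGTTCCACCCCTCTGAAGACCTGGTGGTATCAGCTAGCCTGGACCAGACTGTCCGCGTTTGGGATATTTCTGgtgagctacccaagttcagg
Il18rap E006, chr1:40582049-40582232, plus strand: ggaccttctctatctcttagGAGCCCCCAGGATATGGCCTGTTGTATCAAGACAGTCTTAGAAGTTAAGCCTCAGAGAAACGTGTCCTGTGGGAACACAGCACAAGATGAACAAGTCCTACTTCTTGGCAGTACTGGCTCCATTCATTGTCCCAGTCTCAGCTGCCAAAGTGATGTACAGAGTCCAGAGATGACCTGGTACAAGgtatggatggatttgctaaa
Sirpa E009, chr2:129453682-129453721, plus strand: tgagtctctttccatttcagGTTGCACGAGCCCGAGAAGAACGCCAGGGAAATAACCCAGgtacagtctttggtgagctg
All 5 begin after ag and end before gt, the usual ends of an intron. In Copa, Il18rap and Fxyd5 the bases after the bin belong to a bin of their own that some transcripts retain (Copa E008, Il18rap E007, Fxyd5 E003). In Sirpa the 12 bases after E009 are bin E010, the stretch between a pair of alternative donor sites.

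Among the membrane proteins of immune cells, Mgl2 showed the widest contrast along a model. Its product is a C-type lectin that binds galactose, found on macrophages, and 2 of its transcripts are on the 100 ng list. The next-to-last bin, E012, measured 301, 344, 273, 299 and 273 FPKM equivalents in the 5 replicates of the 1000 ng background and 3046, 3277, 1791, 1972 and 3226 in those of the 100 ng background. The groups did not overlap, and E012 held 19.9% ± 0.19 of the model's reads in the first and 50.4% ± 3.79 in the second (SD, n = 5). Its usage difference was -2.03 (limma diffSplice adjusted p = 1.4e-23). Coding exon E006 (chr11:69949272-69949343), in contrast, measured 1150.4, 1243, 1003, 1127 and 1041 against 1049, 965, 1134, 1092 and 988. Those values overlap, and with a level log2 difference of 0.09 (SE 0.09, limma adjusted p = 0.596) E006 had the most positive usage difference of the model, 1.44 (diffSplice adjusted p = 3.65e-15).

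The other bins of Mgl2 fell into the same blocks, apart from E003, E004 and E009. Those were higher in the 100 ng background by level and relatively higher in the 1000 ng background by usage. E005 and E007, the coding exons on either side of E006, measured 966 ± 82.6 against 983 ± 52.9 and 992 ± 87.3 against 1010.3 ± 72.5. From E010 to E013 at the 3' end, all 4 bins were higher in the 100 ng background, with log2 differences of -1.90 to -3.31, and so were E001 and E002 at the 5' end, at -1.73 and -1.53. The last bin, E013, had the most negative usage difference of the model, -2.24, at 105 ± 27.1 against 1049 ± 261. Of the 23585 reads gained from 40M to 80M, 14438 fell in E012, 54 in E006 and 48 in E013. The last 2 gains weigh differently, since E006 held 2.40% of the model's reads in the 100 ng background and E013 0.16%. The 3-base bin E003, present in 1 of 6 annotated transcripts, changed against its own exon: it collected 17.7, 18.5, 17.3, 17.7 and 18.4% as many reads as the adjoining E004 in the 1000 ng background and 25.7, 26.5, 22.9, 23.1 and 26.9% in the 100 ng background, and 39.6% among the gained reads. In the matching bin pair of Fxyd5 the percentages were 24.0 ± 0.94 and 25.8 ± 1.02, which overlap, and among the gained reads 50.4% in both backgrounds. These bin pairs were picked after their values had been seen, and no test was made of the percentages.

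Sirpa, the inhibitory receptor that binds CD47, is also on the 100 ng list. Its last bin E011 (chr2:129455663-129457964, partly coding) measured 78.3, 89.1, 75.0, 77.1 and 72.3 FPKM equivalents in the 1000 ng background against 426, 455, 272, 294 and 444, with no overlap. It took 59.0% ± 0.72 of the model's reads in the first and 80.2% ± 2.40 in the second, a usage difference of -1.76 (diffSplice adjusted p = 1.62e-21). The large coding exon E004 and the 5' bin E002 were also relatively higher in the 100 ng background, at -1.09 and -1.26. By contrast the short coding bins E008, E009 and E010, of 25, 40 and 12 bases, had levels that overlapped between the backgrounds. E009 measured 422, 498, 441, 423 and 412 against 413, 384, 430, 406 and 327, and its usage difference was 0.87 (adjusted p = 2.28e-08). They gained 1, 4 and 3 reads between 40M and 80M while E011 gained 6946.

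Il18rap encodes the accessory chain of the interleukin-18 receptor. The level differences lay in its 5' part: E003 to E008 were each higher in the 100 ng background, and the 7 bins from E009 to E015 were not past the threshold. Coding exon E006 measured 12.4, 13.3, 12.7, 12.6 and 18.1 FPKM equivalents against 44.9, 48.5, 33.3, 35.3 and 47.3, a level log2 difference of -1.53 (SE 0.15, limma adjusted p = 6.18e-05) and a usage difference of -1.30 (adjusted p = 1.73e-13). The groups did not overlap. E013, a coding exon further downstream, measured 22.4, 20.6, 20.4, 22.3 and 18.5 against 15.2, 18.4, 20.7, 19.2 and 16.3, with overlap and a usage difference of 0.56. The most positive, E011, is a noncoding bin at 2.38 ± 0.58 against 1.58 ± 0.45, with a usage difference of 0.76. Between them lies E007, 1530 noncoding bases that directly follow E006 and belong to 1 of 4 annotated transcripts. It measured 0.29 ± 0.06 against 1.21 ± 0.34, a usage difference of -0.49. Of the reads gained from 40M to 80M, 2 fell in E009, 1 in E010 and none further downstream.

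Fxyd5, a small regulator of the sodium pump also known as dysadherin, has a different transcript on each list. Of its 13 bins, 3 were relatively higher with 1000 ng and 3 with 100 ng, and not all of these are described here. Whether the split follows the listed transcripts was not tested. Coding exon E004 measured 2112, 1733, 2157, 2064 and 2219.5 FPKM equivalents in the 1000 ng background against 845, 831, 999, 926 and 826 in the 100 ng background. The level was higher by 1.21 on the log2 scale (SE 0.10, limma adjusted p = 2.97e-05) and the usage difference was also 1.21 (adjusted p = 1.66e-18), with no overlap. E003, the 2190 bases that directly follow E004 and that 1 of 12 annotated transcripts retains, rose with it, at 16.7 ± 2.08 against 7.41 ± 0.38. At the other end of this minus-strand gene, E012 measured 67.5, 69.2, 57.8, 60.3 and 64.9 against 144, 148, 108, 109.7 and 148, and the neighbouring E013 80.4 ± 6.95 against 131.3 ± 9.84. Both of these 5' bins were thus higher in the 100 ng background. The 7 bins between, E005 to E011, did not pass the usage or the level test. The total of Fxyd5 differed by 0.25 on the log2 scale, and E004 alone gained 1075 reads with 1000 ng and 18 with 100 ng. Most of the gain fell in the 3' bin E002, with 2482 and 1439 reads.

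Myadm, a membrane protein of the myeloid lineage, is listed for both backgrounds with the same transcript, yet its bins gained reads in the 1000 ng background only (8467 against 0). All 6 bins were higher there, and the last, E007, stood out from the others. It measured 333, 242, 351, 327 and 378 FPKM equivalents against 77.1, 71.1, 92.3, 82.8 and 70.6, and took 93.6% ± 0.53 of the model's reads against 86.9% ± 0.42. The usage difference of E007 was 1.15 (adjusted p = 2.8e-09). E004 was at the other extreme with -0.43 (adjusted p = 0.0221), a call that was lost when any of 4 of the 10 columns was left out.

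**Figure D2:**
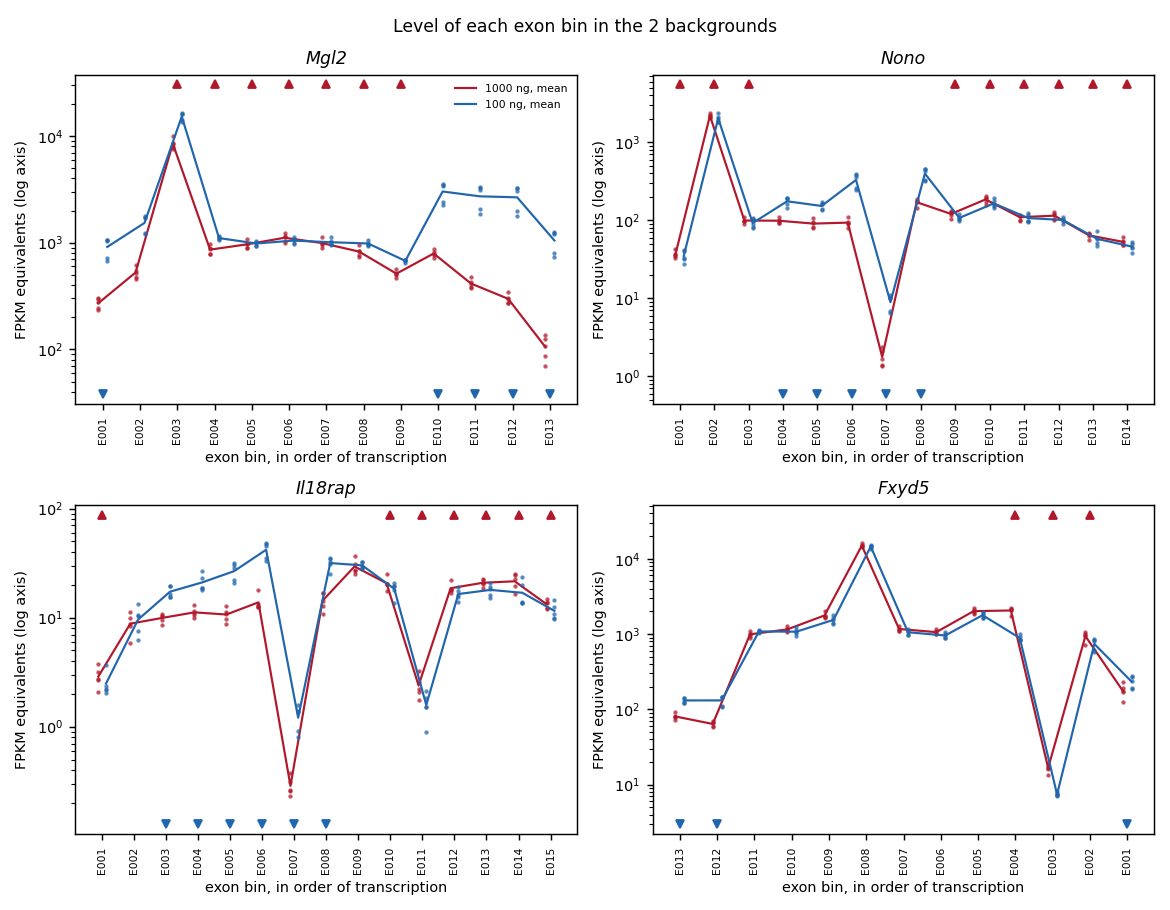
Level of each exon bin in FPKM equivalents (vertical log axis) along 4 models in order of transcription; points are the 5 replicates, lines join their means, and triangles mark bins past the usage threshold (top, relatively higher in 1000 ng; bottom, in 100 ng). In Mgl2 the ends of the model separate while E005 to E007 coincide, in Nono and Il18rap an inner or 5' block separates, and in Fxyd5 E004 and E012 move in opposite directions.

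Nono, an RNA- and DNA-binding protein of paraspeckles on chromosome X, was relatively higher in the 100 ng background in the 5 bins from E004 to E008, and relatively higher in the 1000 ng background in its 9 other bins. E006 measured 92.0, 109, 90.8, 93.8 and 80.4 FPKM equivalents against 363, 390.1, 245, 259 and 386, with no overlap and a usage difference of -1.53 (adjusted p = 1.92e-21). It held 13.5% ± 0.46 of the reads against 31.0% ± 4.28. The noncoding bin E007 (chrX:98637157-98637770), which continues E006 in 1 of 7 annotated transcripts, was named by the rule for Nono with -1.57 and measured 1.77 ± 0.43 against 8.89 ± 2.15. The last bin, E014, measured 54.2, 60.3, 48.5, 51.9 and 48.8 against 45.3, 44.1, 52.4, 49.9 and 38.4. Those overlap, as do the levels of E012, which was the most positive bin without overlapping shares (usage difference 0.59), and none of the 9 bins outside the block gained reads.

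Aes is a short Groucho-type corepressor on the 1000 ng list, and its levels rose at both ends. Its last bin, E010, measured 561, 401, 599.7, 552 and 642 FPKM equivalents against 122, 112, 151, 147 and 115, with no overlap, a usage difference of 1.44 (adjusted p = 5.62e-18) and 45.7% ± 3.85 of the reads against 24.4% ± 0.96. The coding exons E004 to E007 had overlapping levels in the backgrounds. E005, the lowest by usage at -0.81 (adjusted p = 3.38e-08), measured 759, 829.8, 692, 736 and 717 against 716, 653, 808, 791 and 629. Ccnh, cyclin H of the CDK-activating kinase and of the transcription factor TFIIH, is on the 100 ng list. Its bin E007 was relatively higher there, at 106 ± 10.7 against 287 ± 54.0 and a usage difference of -0.83, while E010 to E013 gained no reads and were relatively higher in the 1000 ng background, with E010 at 1.00.

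Copa encodes the alpha subunit of the COPI coat of transport vesicles, and the bins that differed by level lay among the first 9 of its 39. E007 measured 100.2, 80.8, 106, 97.7 and 106 FPKM equivalents in the 1000 ng background against 31.9, 31.7, 38.1, 43.8 and 21.01, with no overlap. Its usage difference was 1.29 (adjusted p = 5.6e-21). The noncoding bins on either side of it, E006 and E008, rose as well, at 2.81 ± 0.47 against 0.52 ± 0.26 and at 1.18 ± 0.23 against 0.28 ± 0.14. From E010 to E039 no bin passed by level and none gained reads, and E037 alone passed by usage, at -0.35. The total of Copa differed by 0.28 on the log2 scale (limma adjusted p = 0.0148).

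Cyth4, a cytohesin that activates ARF GTPases, is listed for the 1000 ng background only, yet it gained 1404 reads there in 18 bins and 1871 reads in the 100 ng background in 11 bins. In 5 bins the gains were equal. E004 measured 10.02, 8.84, 11.04, 11.2 and 11.7 FPKM equivalents against 4.35, 3.00, 6.43, 4.77 and 4.21, a usage difference of 1.28 (adjusted p = 4.57e-20). In the opposite direction E008, E010, E011 and E012 were higher in the 100 ng background. E012 measured 289, 298, 320.3, 298 and 316 against 607, 630.1, 445, 459.7 and 626, and E010, the lowest by usage at -0.99, 42.1 ± 2.54 against 91.4 ± 21.2. Neither pair of groups overlapped, and the total of Cyth4 went against its list, by -0.18 on the log2 scale (limma adjusted p = 0.00693), or 0.02 with the values as deposited and without the fifth 100 ng column.

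Birc3, an inhibitor of apoptosis with ubiquitin ligase activity, is on the 100 ng list. Its 3' bin E001 measured 3.69, 3.78, 3.77, 4.56 and 3.87 FPKM equivalents against 20.7, 22.1, 11.6, 14.4 and 21.4, with a usage difference of -1.78 (adjusted p = 1.49e-11). E003 and E004 followed with -1.38 and -1.33, and E005 and E011 were higher in the 100 ng background by level alone. The short noncoding E013 at the 5' end (chr9:7873128-7873170) went the other way by level, at 1.90, 1.68, 3.12, 0.93 and 1.14 against 0, 0, 1.42, 0.82 and 0, which overlap. Its level passed narrowly (limma adjusted p = 0.0484) and its share did not (exact permutation adjusted p = 0.0712). Of bins whose shares did not overlap, E008 was the most positive by usage at 0.66, a call lost when any of 3 columns was left out. Rhbdd3, a protein with a rhomboid domain, had E008 (chr11:5004024-5004407) at 3.37 ± 0.97 against 14.0 ± 2.88, a usage difference of -1.10, and E002 at 6.02 ± 0.77 against 5.15 ± 1.43, a usage difference of 1.06. The call of Rhbdd3 E008 was lost with a pseudocount of 0.1 or 10, and that of E002 with 0.1.

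Ppp2r3a, a regulatory B'' subunit of protein phosphatase PP2A, has a transcript on each list. The 3' bin E001 measured 1.66, 2.17, 1.54, 2.25 and 1.82 FPKM equivalents against 8.81, 9.27, 5.57, 6.04 and 9.20, and held 31.6% ± 2.76 of the reads against 54.5% ± 2.65. E016, a 2432-base partly coding bin near the 5' end, moved with it at -1.25. E002, E003 and E010 were relatively higher in the 1000 ng background, and of these E010 had a usage difference of 0.84 with overlapping levels of 6.89 ± 0.98 and 3.91 ± 1.83. The gain of reads was 36 with 1000 ng and 303 with 100 ng. Elp2, a subunit of the Elongator complex that modifies transfer RNA, also has a transcript on each list. Of its 24 bins, 14 gained the same number of reads on either side, while E005, E006 and E010 gained more in the 1000 ng background (21 against 0, 23 against 0 and 29 against 3). Those 3 bins passed by level and usage, with E006 at 72.7 ± 7.33 against 41.6 ± 9.28 and a usage difference of 0.72, and the total of Elp2 differed by 0.05 (limma adjusted p = 0.561), or -0.02 with size factors from models without kit reads.

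The remaining kit-read models are given by their extreme bins. Pla2g15, a lysosomal phospholipase on the 100 ng list, had its last bin E008 at 7.20 ± 0.88 against 34.0 ± 8.25 FPKM equivalents, with 63.4% against 78.2% of the reads, and coding exon E003 at 11.9 ± 2.25 against 14.9 ± 1.06, a usage difference of 0.87. Kcnn4, a calcium-activated potassium channel, had E009 at 24.2 ± 2.77 against 65.3 ± 11.04 and its first bin E001 at 11.4 ± 1.37 against 11.7 ± 1.78, with usage differences of -0.85 and 0.65. Dhps, the deoxyhypusine synthase that modifies translation factor eIF5A, had the noncoding bin E003 (chr8:87596957-87597193) at 3.03 ± 0.57 against 10.01 ± 2.06 and coding exon E006 at 26.4 ± 2.67 against 23.6 ± 3.36, with usage differences of -1.11 and 0.66. In Pla2g15, Dhps and Kcnn4 the bin named as most positive by usage did not pass by level, while the most negative did. By level, 6 of 8 bins of Pla2g15, 4 of 10 of Dhps and 7 of 11 of Kcnn4 were higher in the 100 ng background. The named bins are the extremes by usage, so no contrast of coding with noncoding bins follows from them.

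Fbf1, a protein of the transition fibres at the base of the cilium, is on the 100 ng list with 2 transcripts. Its 3' bin E001 measured 2.40, 2.47, 1.96, 2.19 and 1.66 FPKM equivalents against 21.1, 22.4, 12.4, 14.0 and 22.5 and held 15.5% ± 1.43 of the reads against 41.1% ± 3.52. E037 at the 5' end, a bin that could not be placed, had the most negative usage difference, -2.17, and coding exon E023 the most positive among bins without overlapping shares, 0.97. For the model that the table leaves without a gene symbol, known by its transcript uc012hbj.1, E001 held 56.8% ± 2.22 against 76.3% ± 2.09 of the reads, with a usage difference of -1.07, and E003 had 0.78. Saal1, on the 1000 ng list, had E004 at 24.0 ± 1.88 against 9.62 ± 0.92, a usage difference of 0.80 whose call was lost with a pseudocount of 0.1. Gmfg, which disassembles branched actin, was the only kit-read model without a usage call (diffSplice F adjusted p = 0.114). Its E001 to E003 passed by level, with 10 reads gained in the whole model.

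Usage was set beside the place of the added reads. In the 12 models listed for 100 ng only, 125 of 169 bins gained reads between 40M and 80M, and all 44 bins relatively higher in that background were among them, against 27 of the 59 bins relatively higher in the other. In the 5 models listed for 1000 ng only, 48 of 93 bins gained reads, and the counts were 16 of 16 and 9 of 10. Of those 10 bins, 4 were of Cyth4, which gained in both backgrounds. These counts take any gain, whatever its size: in Aes, E005 gained 4 reads and E010 gained 3492. The gained reads are part of the values tested, so this is a description of where they fell. The share of the gain in a single bin varied between models: 1 bin took 61.2% of the gain in Mgl2, 88.4% in Sirpa, 84.4% in Pla2g15 and 96.1% in Myadm, where the same bins held 19.9, 59.0, 63.4 and 86.9% of the model's reads in the other background. The gain was spread more widely elsewhere, with at most 18.2% in 1 bin in Ccnh, 25.0% in Rhbdd3, 27.9% in Il18rap and 28.9% in Kcnn4, and 18.7% in Cyth4 with 1000 ng.

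**Figure D3:**
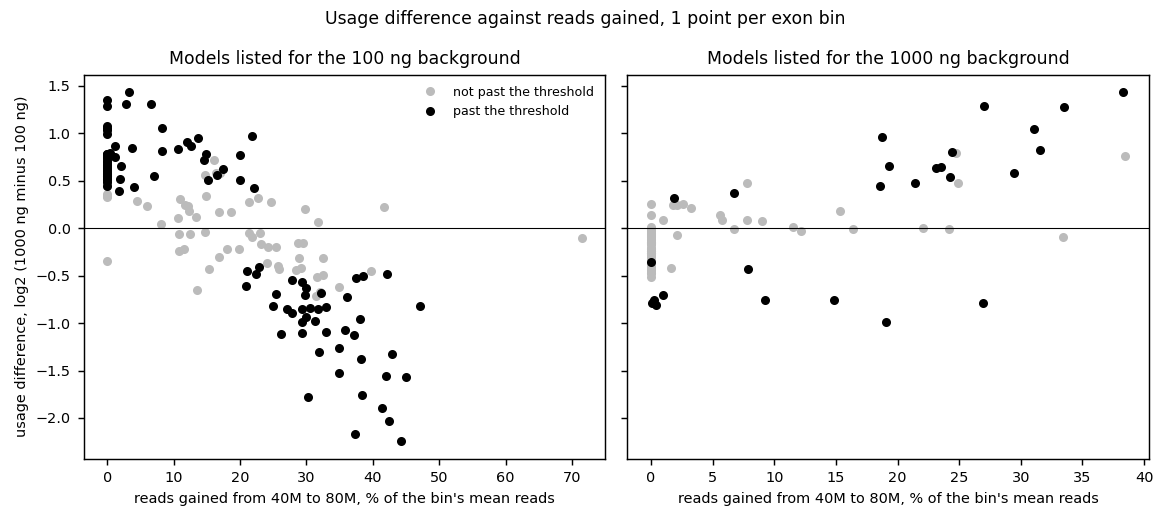
Usage difference of each exon bin (vertical axis, log2) against the reads it gained from 40M to 80M as a percentage of its mean reads (horizontal axis), for models listed in 1 background only; black points passed the usage threshold. Bins without gained reads lie above 0 in the 100 ng panel where they passed, and the lowest points, Mgl2 E013 at -2.24 and Fbf1 E037 at -2.17, had gained reads.

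Longer bins tended to move with the added reads. In the models listed for 100 ng, bins relatively higher in that background had a median length of 185 bases and those relatively higher in the other 106 bases, against 125 for all their bins. For the models listed for 1000 ng the medians were 164.5 and 69.5 bases, against 111. Spearman's rank correlation of length with usage, across the bins of 1 model, was negative in 11 of 12 models of the 100 ng list, from -0.91 in Sirpa to 0.34 in Ccnh, and positive in 4 of 5 models of the 1000 ng list, from -0.11 in Copa to 0.87 in Aes. Bins of a model share their libraries and their reads at boundaries, and no test was made. By annotation, 73 of 194 coding bins, 17 of 29 partly coding, 15 of 34 noncoding and 41 of 65 bins that could not be placed on the annotation had a usage difference in kit-read models, the last being the largest share. Over all bins of kit-read models it was 146 of 322 (45.3%), and a difference by annotation was not tested.

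Among the 33 models with synthetic reads, 7 passed the F test. The SD of their totals between replicates had a median of 33.4% of the mean with 1000 ng (5.71 to 70.3% over the models) and 27.0% with 100 ng (5.38 to 111.5%). In kit-read models it was 8.67% (1.61 to 15.2%) and 10.99% (2.63 to 48.9%), so the ranges overlap. Of the 7 models past the F test, Atg16l1, Rnf130, Dvl3 and AK005305 had different synthetic transcripts listed for each background. Hdh was listed for 1000 ng only, and Rcbtb2 and tubg1 for 100 ng only. Which bins each listed transcript covers was not tested. The widest usage difference was in Atg16l1, an autophagy protein needed to attach LC3 to membranes. Its 48-base coding exon E012, found in 3 of 13 annotated transcripts, measured 10.2, 43.1, 53.0, 104 and 103 FPKM equivalents in the 1000 ng background against 2.46, 5.35, 1.91, 2.21 and 10.5. The levels overlap at 1 value, and the shares do not. As a percentage of the mean reads of the flanking exons E010 and E013, the reads of E012 came to 16.1, 27.7, 36.1, 40.3 and 56.4 against 1.12, 2.69, 1.38, 1.92 and 11.9. The usage difference was 3.29 (diffSplice adjusted p = 6e-11; share by exact permutation, adjusted p = 0.0439), while the total differed by 0.14 (limma adjusted p = 0.805) and the neighbouring E011 by 0.35 in usage, not past the threshold.

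In Rnf130, a RING-type ubiquitin ligase, the last bin, E012, measured 31.3, 9.76, 48.7, 4.21 and 40.5 FPKM equivalents against 6.08, 1.22, 1.78, 4.40 and 4.22. It held 14.3% ± 7.91 of the reads against 1.90% ± 1.10, with a usage difference of 2.75 (adjusted p = 1.86e-06). Levels overlap, because replicate 4 of the 1000 ng background lies within the 100 ng range, and the shares of summed levels do not. No other bin of Rnf130 passed.

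Dvl3, a Dishevelled protein of Wnt signalling, had bins past the level threshold in both directions. The 1084-base noncoding E003 (chr16:20522399-20523482), in 1 of 4 annotated transcripts, measured 1.88, 0.76, 1.98, 1.41 and 1.15 FPKM equivalents against 5.56, 4.99, 2.46, 3.38 and 2.91, without overlap, and its usage difference was -1.63 (adjusted p = 1.2e-08). The noncoding E009 and the unplaced E011 were also relatively higher in the 100 ng background, at -1.05 and -1.33. The other 12 bins that passed by level were higher in the 1000 ng background, among them E019 at 20.2, 12.4, 30.5, 17.8 and 23.7 against 7.77, 7.36, 7.87, 7.25 and 8.60, a usage difference of 0.73. Coding exons E004 and E005, next to E003, overlapped between the backgrounds.

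In Rcbtb2, a protein with RCC1 and BTB domains, no coding exon passed by level, while 3 bins outside the coding sequence or unplaced, E002, E006 and E012, were higher in the 100 ng background. E012 (chr14:73562285-73563891) measured 0.67, 0.21, 0.41, 0.39 and 0.42 FPKM equivalents against 1.30, 4.35, 0.93, 4.91 and 2.00, a usage difference of -1.19 (adjusted p = 7.23e-11). In Hdh, the huntingtin gene, 10 bins among E001 to E013 were relatively higher in the 1000 ng background. The widest was E002, at 12.5, 38.6, 33.7, 39.2 and 110.3 against 20.2, 22.7, 3.60, 7.50 and 25.4, a usage difference of 1.10 whose levels and shares overlap. The remaining 57 bins of Hdh held 1 usage call.

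The 2 further models rest on weak bins. In tubg1, gamma-tubulin, the bins E017 to E024 repeat the lengths of E003 to E010 in order, 8 in a row, and the table does not say whether they are a second, similar copy. Reads may be split between similar copies, so these bins are uncertain. E017 measured 2.18 ± 0.09 against 7.14 ± 6.21, with overlap and a usage difference of -0.98 whose call was lost with a pseudocount of 0.1, and E022 had 0.55. In AK005305, E007 measured 28.8 ± 13.5 against 55.8 ± 19.3, a usage difference of -1.52 (adjusted p = 0.028) that was lost when any of 4 columns was left out. The 4 unlisted models (Parg, Phospho2, Sin3b and Tom40) did not pass the F test.

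**Figure D4:**
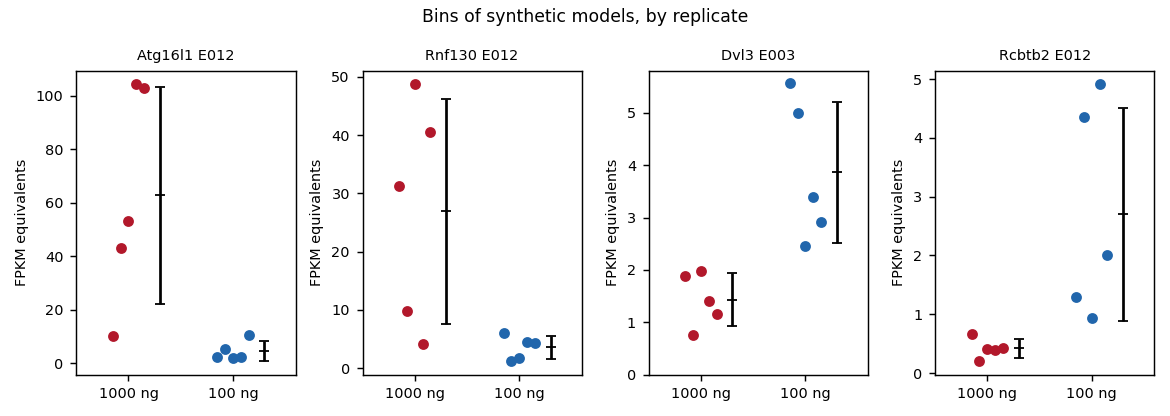
Level in FPKM equivalents (vertical axis) of 4 bins of models with synthetic reads, with 1 point per replicate and bars for the mean and SD (n = 5). Atg16l1 E012 reaches 104 and Rnf130 E012 reaches 48.7 in the 1000 ng background, and Dvl3 E003 and Rcbtb2 E012 are higher in every 100 ng replicate than in any 1000 ng replicate.

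By role, counts are set against the 19.2% of all bins with a usage call. That share was 45.3% in kit-read models and 5.59% in models with synthetic reads. Groups differ in their mix of these kinds of model, and all 5 immune membrane proteins are kit-read models. The 5 immune membrane proteins (Mgl2, Sirpa, Il18rap, Myadm, Fxyd5) had 23 bins relatively higher with 1000 ng and 18 with 100 ng among 58 (70.7%), and a median usage difference of 0.08 against -0.02 over all bins. The Wnt and corepressor genes (Aes, Dvl3, Cbx7, Sin3b) had 7 and 8 of 66 (22.7%), the ubiquitin and cell death genes (Birc3, Rhbdd3, Casp9, Bcl2l13) 7 and 6 of 47 (27.7%), and the cilium genes (Bbs9, Fbf1, Evi5l) 7 and 5 of 79 (15.2%). For phosphatase and tRNA modification genes (Ppp2r3a, Arpp19, Elp2, Trm1l) the counts were 6 and 3 of 70 (12.9%), for actin and membrane traffic (Gmfg, Sh3pxd2b, Cyth4, Atg16l1) 4 and 4 of 68 (11.8%), for the phospholipases (Pla2g15, Pla2g16) 3 and 2 of 16 (31.2%), and for the noncoding snoRNA host Gas5 1 and 0 of 20 (5.0%). Several lists are thus near or below the share over all bins, and Copa, Nono and other models described above are in none of them. Within every group of more than 1 gene, the calls of models that passed the F test came from Mgl2, Sirpa, Il18rap, Myadm, Fxyd5, Aes, Dvl3, Birc3, Rhbdd3, Fbf1, Ppp2r3a, Elp2, Cyth4, Atg16l1 and Pla2g15.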

How the data were processed

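Members and lists were chosen with earlier results of these data known. Per the submitters' processing notes, STAR, Cuffdiff and mm9 were used. The tool and settings behind the bin values are not given in the sources used here. Per the file itself, the authors deposited a coverage signal per exon bin: the values were whole reads divided by bin length minus 1, within a tolerance of 0.001 reads, and the fifth 100 ng column was divided further by 16.16. Reads were recovered from these steps. The table had 1744 rows, 818 of them repeats. Of 925 bins, 714 were placed on GENCODE vM1 (NCBIM37). The planned unit was FPKM, and the tests were kept for these scaled values. Gains compare the same columns with those of the samples with 40M reads. Reads in bins ranged from 312381 to 593002 per column, and bins with few reads are the least precise. Columns were scaled by the median of ratios over 875 bins (factors 0.68 to 1.81). limma 3.58.1 (R 4.3.3: lmFit, eBayes, diffSplice) was fitted on log2(value + 1), with 5 columns a side and two-sided tests, p-values being adjusted by Benjamini-Hochberg over all bins or models, a threshold of 0.05, and a mean of at least 1 for bins of unlisted models. Fold changes on this scale understate those of low bins. Shares were compared by exact permutation (smallest p 0.00794). Scripts were tested on simulated data, with bins drawn independently and no fixed added reads, so this does not test the usage p-values given here. Bins named are, per kit-read model, those with the most positive and most negative usage difference among called bins whose shares do not overlap; per other model past the F test, the called bin of widest difference; and the bins of models with level calls in both directions. Others were chosen after their values were seen. Sequences come from the NCBIM37 genome.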

Additional observations from a re-analysis of the deposited data

Results flagged for a closer look

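Within a group of 5 replicates, the share of reads of a named bin was checked for 1 value far from the other 4 (Dixon's test, critical value 0.71). Of 88 groups, 6 had one, and chance alone gives about 1 in 20. Atg16l1 E012 took 0.37% of the model's reads in replicate 5 of the 100 ng background, against 0.04 to 0.12% in the others. Il18rap E006 took 9.50% in replicate 5 of the 1000 ng background, against 6.20 to 7.04%. Aes E005 took 5.69% in replicate 2 of the 1000 ng background, against 3.84 to 4.32%, in the column with the largest size factor (1.81). For Sirpa E009 the value was 5.95% in replicate 3 of the 1000 ng background, against 5.43 to 5.58%. Kcnn4 E009 took 13.1% in replicate 4 of that background, against 11.2 to 11.7%. Fbf1 E037, a 30-base bin, took 0.84% in replicate 3, against 0.24 to 0.37%. Each of these 6 values lay outside the range of the other background.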

How the results depend on the processing

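Scaling by total reads in bins gave 78 usage calls (35 higher in the 1000 ng background) against 177 (105), 15 model totals against 24, and 138 level calls (69) against 197 (73). The values as deposited without the fifth 100 ng column gave 38 usage calls, 32 of them shared with the scaled values, 90 level calls, 9 totals and 18 models with bin usage against 27. Under these settings 10 and 27 of 44 named bins lost the usage call; the 17 that passed as deposited were Atg16l1 E012, Hdh E002, AK005305 E007, Dvl3 E003, Fxyd5 E004, Mgl2 E006 and E013, Aes E010, Sirpa E011, Myadm E007, Copa E007, Birc3 E001, Fbf1 E037, Il18rap E006, Ppp2r3a E001, Pla2g15 E008 and Ccnh E007. The values as deposited are reads per base without column scaling, so the 1 added before the log weighs more on low bins than in FPKM equivalents. The low bin Nono E007 went from -1.57 to -0.11 in usage, while the high bin Fxyd5 E004 stayed at 1.21. Leaving out the fifth 100 ng column with column scaling kept gave 166 usage calls. No named bin changed direction under any setting. Reversed totals were Cyth4 (0.021 as deposited without the fifth 100 ng column, -0.18 otherwise) and Elp2 (-0.017 with size factors from models without kit reads, 0.05 otherwise); the cause was not tested. Pseudocounts of 0.1 and 10, other filters, voom, bins of at least 21 bases and those size factors kept all counts within 1.5 times; the last 2 were added after seeing the data, as was the share of reads (206 calls against 167). Leaving out each column gave 151 to 189 usage, 155 to 189 level, 20 to 24 total and 27 to 29 model calls. Same-numbered columns did not deviate together (correlations -0.37 to 0.07, none the best of its number), so no pairing by number was seen. A shared culture or batch is not excluded by this. The replicate block gave 176 usage, 28 model, 151 level and 19 total calls. Exact permutation of log2 levels called 169 bins.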

Other observations

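In 2 models with synthetic reads the total differed while the F test of bin usage did not pass; they were chosen after their values had been seen. In Tmco6, a model with synthetic reads in the 1000 ng background, 8 of 15 bins were higher there and none lower, and the total measured 43.5 ± 16.1 against 17.4 ± 9.74 FPKM equivalents (SD, n = 5; limma adjusted p = 0.0218), with an adjusted p of 0.116 for the diffSplice F test, although its bin E013 passed the usage test on its own. In Evi5l, 6 of 13 bins passed by level, all on the 100 ng side, with a total of 10.1 ± 2.80 against 16.1 ± 3.64 (limma adjusted p = 0.0283; usage F test, adjusted p = 0.644).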
